A study of Mus musculus with 80 samples.

Results

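The genes described here were the chemokines, the interleukins and their receptors, 135 of the 25899 genes of the deposited expression table. They were chosen by symbol alone: Ccl, Cxcl, Ccr or Ackr followed by a number, the receptors Cxcr1, Cxcr2, Cxcr3 and Cxcr6, and Il followed by a number. By role they were 24 CC chemokine ligands, 13 CXC chemokine ligands, 14 chemokine receptors, 40 interleukins, 41 interleukin receptor genes and 3 others, namely the inhibitors Il1rn and Il18bp and the enzyme Il4i1. No symbol of the table began with Ackr. Il1rapl1 and Il1rapl2, which code for synaptic adhesion proteins, were counted among the receptor genes because of their names.

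The cells were skeletal muscle stem cells (MuSCs) sorted as GFP-positive cells from extraocular muscle (EOM) and tibialis anterior (TA) of Tg:Pax7-nGFP mice, whose Pax7 promoter drives a nuclear GFP. Male donors on a mixed C57BL/6 and DBA2 background were 7.6 weeks old in Experiment 1 and 7 weeks old in Experiment 2. Pre-graft libraries were made from 500 cells each. For grafting, EOM and TA cells of a donor went into separate TA muscles of the same Rag2-/-;γC-/- host, both injured beforehand with cardiotoxin, and GFP-positive cells were sorted again. The labels put this at day 21 and give far fewer cells, down to 9 per EOM graft library and 16 to 67 per TA graft library. The results text of the study names a longer interval, while its methods give a range that takes in day 21. The study's own list of libraries gives more cells for some grafts. Both kinds of cell were therefore compared after time in the same TA bed, and GFP marks cells that transcribe Pax7 or still hold the protein. Of 40 RNA libraries, 30 passed the study's quality control, which also left out an outlier: 8 EOM pre-graft, 8 TA pre-graft, 7 EOM graft and 7 TA graft libraries. Each library of a group came from a different donor animal.

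Chemokines are small secreted proteins that bind receptors coupled to G proteins and direct cell migration. Interleukins act through receptors that share subunits: gp130, the product of Il6st, serves the IL-6 family and signals through JAK kinases and STAT3, whereas the IL-1 and IL-17 receptors signal through adaptor proteins to NF-kB. In muscle these signals are best known after injury, when IL-6 acts on MuSCs and when CCL2 and the CXCR2 ligands draw monocytes and neutrophils into the tissue.

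Libraries held 3326270 to 14402975 reads and 9758 to 13970 genes with reads. Values are log2 RPM, the base 2 logarithm of reads scaled to the depth of the library (RPM) as deposited, in which a gene without a read stands at 0.9 reads, that is between -1.67 and 0.48 depending on the library. Grafts differed from pre-graft cells over the whole table. The percent of reads in mitochondrial genes, as deposited, was 2.91 to 8.16% in EOM and 3.22 to 22.9% in TA pre-graft libraries but 3.85 to 59.6% in EOM and 5.45 to 46.8% in TA grafts. The median log2 difference over all genes tested was -1.09 after grafting in TA and -1.48 in EOM, -0.30 for TA against EOM before grafting and 0.09 between grafts. Changes of the members are therefore also given relative to these medians, and a gene at the median is said to lie at 0 on that scale.

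Marker genes moved as well. The 10 MuSC markers summed to 12560 to 15905 RPM in EOM and 11599 to 19702 RPM in TA pre-graft libraries, and to 1186 to 12071 RPM and 294 to 9056 RPM in the grafts, where all 10 in TA and 9 in EOM were called lower, against 30.9% and 55.8% of all genes tested. With mitochondrial genes left out of the scaling 10 and 4 of the 10 were called lower, with each library centred on its median 9 and 2, and by edgeR 6 and 1. In the same order, 11.9% and 12.4%, 5.68% and 4.84%, and 3.07% and 2.9% of all genes were lower. The 8 endothelial markers ranged from 102 to 535 RPM in EOM and 17.6 to 1312 RPM in TA before grafting and from 194 to 2221 RPM and 618 to 3470 RPM after it, with 7 of 8 called higher in each muscle, against 3.79% of all genes in TA and 3.51% in EOM. Pericyte and smooth muscle markers summed to 461 to 809 RPM in EOM and 336 to 1559 RPM in TA before grafting. In the grafts these sums were 365 to 4814 RPM and 340 to 5894 RPM, so that the ranges overlapped. Of the 6 genes, 3 were called higher in TA, and 2 higher and 1 lower in EOM. Myofibre markers summed to 8.42 to 43 RPM in EOM and 20.0 to 270 RPM in TA before grafting. Of the 6, 2 were called higher in TA, against 1.26% of all genes. In the grafts the myofibre markers summed to 11.3 to 1154 RPM and 89.1 to 503 RPM, with 5 of 6 higher in EOM and 1 in TA. Fibro-adipogenic markers summed to 1698 to 4139 RPM in EOM and 1491 to 2439 RPM in TA before grafting. Of 7 tested, 3 were lower in TA, against 3.31% of all genes. In grafts the fibro-adipogenic markers summed to 1053 to 4255 RPM and 668 to 3682 RPM, with 3 of 7 higher and 1 lower in TA and 1 of 8 higher and 3 lower in EOM, where centred libraries left 1 higher and 0 lower. Macrophage markers, 11 of 12 of which were in the table, lay between 1.72 and 147 RPM in 28 libraries but at 2273 RPM in the EOM pre-graft library of mouse 2 and at 842 RPM in the EOM graft library of mouse 5, both of Experiment 2. Neutrophil markers did not exceed 5.25 RPM in any library and lymphocyte markers did not exceed 44.8 RPM, and S100a8, Ly6g, Retnlg, Cd3g, Cd8a and Nkg7 had no read in any group. Dissociation stress genes such as Fos, Jun and Egr1 summed to 19774 to 38061 RPM in TA and 12841 to 21989 RPM in EOM pre-graft cells. Of the 14, 3 were called higher in TA, against 1.26% of all genes. After grafting 10 of 14 were called lower in TA and 8 in EOM, against 30.9% and 55.8% of all genes. With centred libraries 6 were lower and 1 higher in TA and 0 lower and 2 higher in EOM, as they were by edgeR, and without mitochondrial genes in the scaling 7 and 1 in TA and 1 and 1 in EOM. The shares of all genes lower and higher with centred libraries were 5.68% and 7.67% in TA and 4.84% and 6.65% in EOM. By edgeR they were 3.07% and 5.98% in TA and 2.9% and 6.93% in EOM. Without mitochondrial genes they were 11.9% and 6.02% in TA and 12.4% and 5.2% in EOM. In these bulk samples fewer cells of a type and less RNA per cell cannot be told apart, and the part of these marker changes in the results below was not tested. Marker sums given beside a result only describe the libraries.

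**Figure D1:**
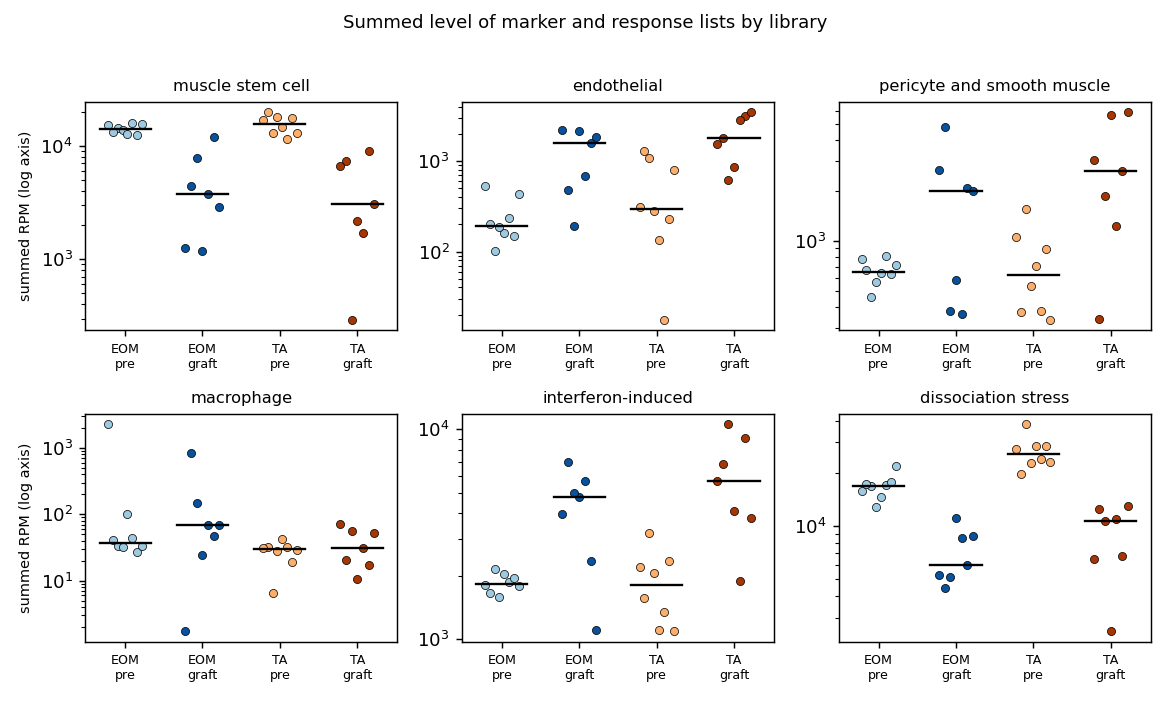
Summed level in RPM (log axis) of 6 gene lists in each library, by group, with the median of the group as a line. Muscle stem cell markers were lower and endothelial, pericyte and interferon-induced genes higher in most grafts, and 2 libraries of EOM origin stood at 2273 and 842 RPM of macrophage markers.

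Of the 135 members, 110 had at least 1 read among the 30 libraries and 25 had none. The 25 without a read included the T cell products Il2, Il9, Il13, Il17a, Il21 and Il22, the IL-1 receptor antagonist Il1rn, the neutrophil receptor Cxcr1, the eosinophil receptor Ccr3 and Il2rb, a subunit of the IL-2 and IL-15 receptors. A further 45 had between 1 and 39 reads in all libraries together. Only 11 members had reads in every library, namely Cxcl1, Cxcl10, Cxcl12, Cxcl16, Ccl2, Il1r1, Il4ra, Il6st, Il10rb, Il11ra1 and Il17rd. Each library held reads of 29 to 60 members, with medians of 49 in EOM pre-graft, 47 in TA pre-graft, 48 in EOM graft and 43 in TA graft libraries, so the number of members seen overlapped between all 4 groups.

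**Figure D2:**
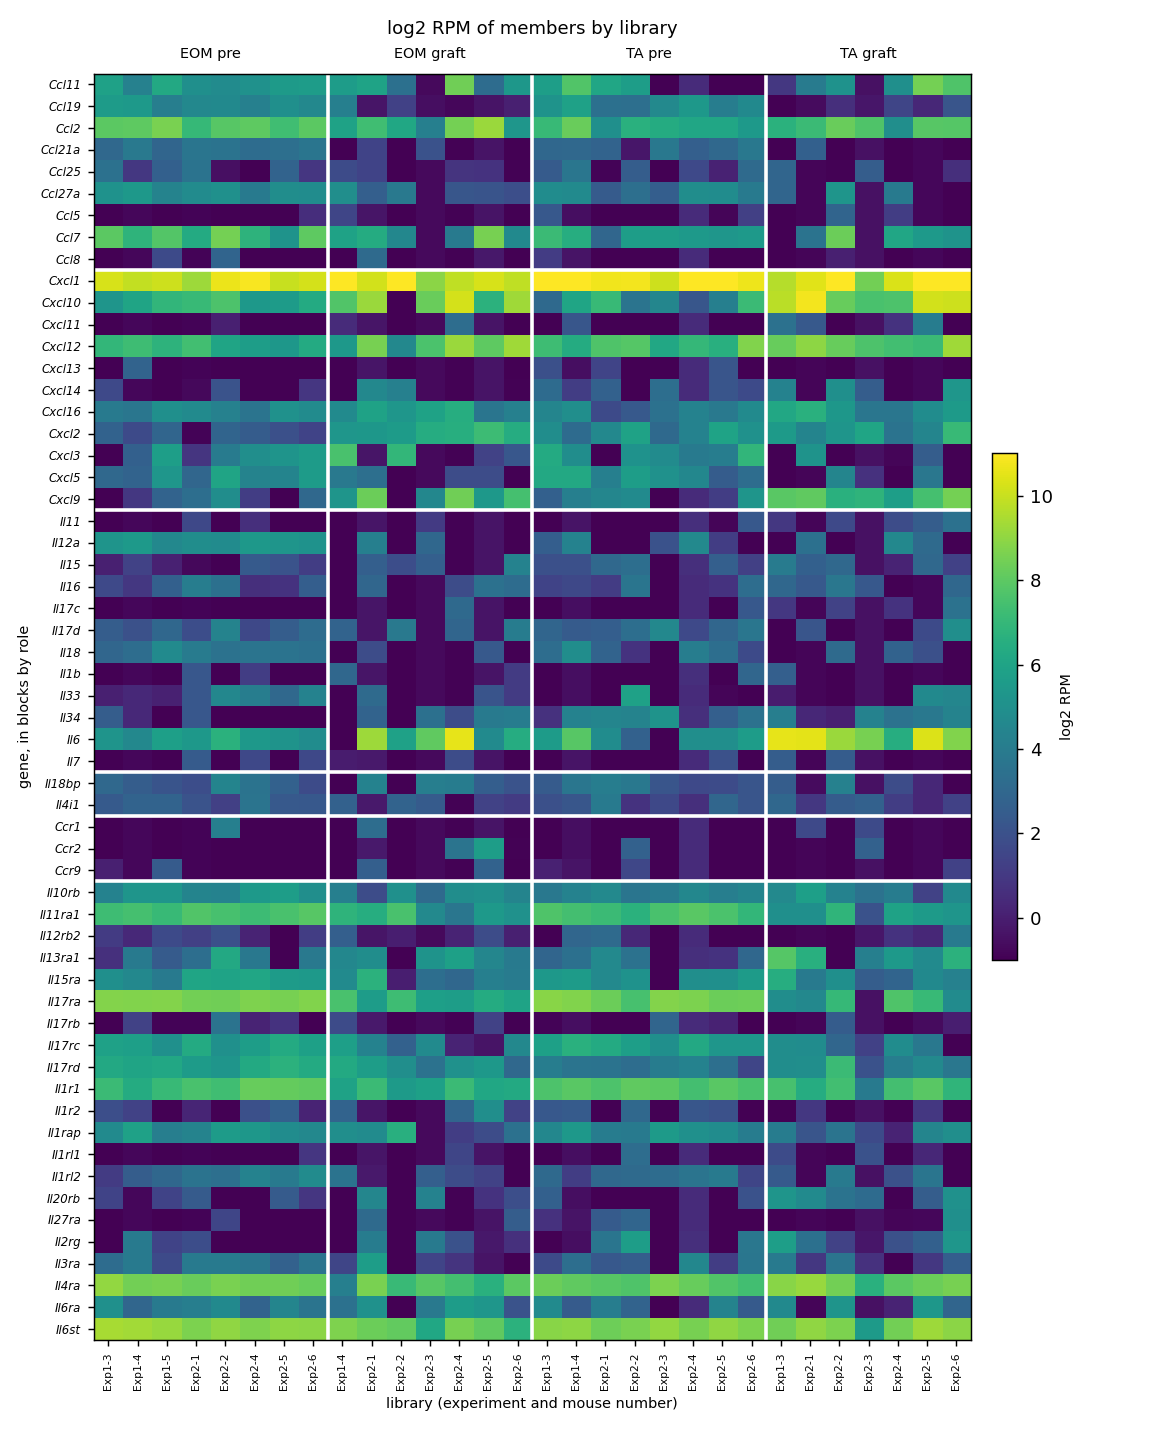
Levels in log2 RPM of 58 members tested in at least 1 comparison (rows, in blocks of CC ligands, CXC ligands, interleukins, other genes, chemokine receptors and interleukin receptor genes) in the 30 libraries (columns, by group), with values beyond the ends of the colour scale drawn at its ends. Cxcl1, Il6st, Il4ra and Il17ra are high in most libraries, the chemokine receptors are near the value of a gene without reads in nearly all, and Cxcl9, Cxcl10 and Il6 are brightest in the grafts.

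To rank genes of different length, RPM was divided by the length of the merged exons. On this scale Cxcl1, a ligand of the neutrophil receptor CXCR2, stood first in all 4 groups, with medians of 609 RPM per kilobase in EOM pre-graft, 1011 in TA pre-graft, 621 in EOM graft and 755 in TA graft cells. Ccl2 and Ccl7, which attract monocytes through CCR2, followed in both pre-graft groups, Ccl2 at 220 RPM per kilobase in EOM and 67.6 in TA and Ccl7 at 208 and 59.8. Cxcl10 was the second in both graft groups, at 134 RPM per kilobase in EOM and 386 in TA grafts, and Il6 the third in TA grafts at 243. The receptors Il4ra, Il17ra, Il6st, Il11ra1 and Il1r1 lay between 27.3 and 57.3 RPM per kilobase at the median in both pre-graft groups. Cxcl1 alone made up 14.3 to 66.9% of the summed RPM of all members in a library.

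The chemokine receptors among the members had few or no reads, and receptors not chosen by symbol, such as Cxcr4, were not counted here. In contrast, Il6st, which codes for the signalling subunit of the IL-6 receptor, had reads in all 30 libraries. Il6ra, its binding subunit, had reads in 25. None of the 14 chemokine receptors had reads in 15 or more of the 30 libraries, and none passed the filter for a comparison of 2 groups, which required log2 RPM above 1 in at least 4 of the libraries compared. Cxcr2, the receptor of Cxcl1, Cxcl2, Cxcl3 and Cxcl5, had 23 reads in 1 TA pre-graft library and none elsewhere. Ccr2, the receptor of Ccl2 and Ccl7, had 107 reads in 7 libraries. Cxcr3, the receptor of Cxcl9, Cxcl10 and Cxcl11, had 6 reads in 1 TA pre-graft library. Ccr7, the receptor of Ccl19 and Ccl21a, had 17 reads in 3 libraries, and Ccr10, the receptor of Ccl27a, 35 reads in 4. A count of 3 reads, taken as the limit for a gene without reads, corresponds to 1.05 to 4.64 RPM depending on the library, so a receptor without reads was not detectable at this depth rather than shown to be absent.

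Members known from macrophages were seen mainly in single libraries. In the EOM pre-graft library of mouse 2 in Experiment 2, with 2273 RPM of macrophage markers, Ccl9 had 275 reads, Ccl6 62, Il10ra 57 and Ccr1 51, whereas the other 7 EOM pre-graft libraries together had 3 reads of Ccl9 and none of the rest. In the EOM graft library of mouse 5 in Experiment 2, with 842 RPM of macrophage markers, Ccl4 had 130 reads, Ccl9 67, Ccr2 59 and Ccl12 53, and Ccl4 had reads in only 1 of the other 29 libraries, with 2. Ccl12 had reads in no other library. The library of mouse 2 also held the highest count of Ccl7, 1016 reads, and of Il13ra1 in the pre-graft EOM group, 218 reads. Scaled to depth and exon length, however, Ccl7 reached 472 RPM per kilobase in an EOM graft, beside at most 444 in EOM pre-graft libraries.

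TA and EOM MuSCs were first compared before grafting, to ask how cells of different embryonic origin and sensitivity to disease differ before they are moved. Of 46 members tested, 2 were higher in TA and 4 higher in EOM by limma at an adjusted p under 0.05 and a log2 difference beyond 1, against 1.26% of all 13217 genes higher in TA and 3.31% higher in EOM. The median difference of the 46 was -0.46, beside -0.30 for all genes. The 6 genes were an IL-17 receptor, a subunit of IL-12, a CSF1 receptor ligand and 3 chemokines, of which Ccl2 and Ccl7 are both CC ligands.

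Il17rd, which codes for a receptor of the IL-17 family also known as Sef, an inhibitor of FGF signalling, separated the muscles without overlap. The gene lies on chromosome 14 from 27039001 to 27107286 (GRCm38, plus strand). Its level was 5.24 at the lowest, 6.21 at the median and 6.73 at the highest in EOM and 1.51, 3.60 and 4.33 log2 RPM in TA libraries. The difference of -2.60 ± 0.36 (SE; 8 and 8 libraries, adjusted p = 3.81e-05, limma) kept its call in every alternative, within Experiment 1 and within Experiment 2 included. Groups that did not overlap, with EOM higher, were found for 1.81% of all genes. IL17RD can pair with IL-17RA, and Il17ra itself was not called between the muscles, with medians of 8.69 in EOM and 8.50 in TA.

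Il12a, the p35 subunit that IL-12 and IL-35 share, had 45 to 111 reads in each EOM pre-graft library and 0 to 26 reads in TA, where 5 of 8 libraries had any. Levels were 4.60, 5.16 and 5.49 log2 RPM (lowest, median and highest) in EOM and -1.45, 1.58 and 4.63 in TA, which overlapped at 1 value, with a difference of -3.74 ± 0.79 (SE, adjusted p = 0.00399, limma). With edgeR on recovered reads the difference was -2.32 and not called. Il12b, the p40 subunit of IL-12, had no read in any pre-graft library. The receptor gene Il12rb2 had 1 to 11 reads in each EOM pre-graft library.

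Ccl2 (chromosome 11, 82035571 to 82037453, GRCm38) and its neighbour Ccl7 (82045712 to 82047525) were both higher in EOM. Ccl2 ranged from 7.06 to 8.61 log2 RPM with a median of 7.97 in EOM and from 4.99 to 8.27 with a median of 6.26 in TA, a difference of -1.48 ± 0.33 (SE, adjusted p = 0.00670, limma), which edgeR put at -1.02 and did not call. Ccl7 had medians of 7.30 in EOM and 5.58 in TA and differed by -1.65 ± 0.48 (SE, adjusted p = 0.0380, limma), but its call was lost when any of 10 of the 16 libraries was left out, with an adjusted p of up to 0.0805 without EOM mouse 6 of Experiment 2 and of 0.0733 without the macrophage-rich library. Ccl2 overlaps the annotated gene Gm17268, and reads of both cannot be told apart. Fibro-adipogenic markers were also higher in EOM, with 3 of 7 called at a median of -1.39 and still 3 with centred libraries, and 1 by edgeR, and their part in the levels of these genes was not tested.

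Cxcl2 was the chemokine higher in TA. It lay at -0.90, 2.21 and 2.92 log2 RPM (lowest, median and highest) in EOM and at 3.10, 4.73 and 5.94 in TA, without overlap, and differed by 2.73 ± 0.59 (SE, adjusted p = 0.00500, limma). Groups without overlap and higher in TA were found for 0.477% of all genes. Cxcl1 lies next to Cxcl2 on chromosome 5 and differed in the same direction by 0.81 ± 0.23 (SE, adjusted p = 0.0293, limma), short of the size required, and reached it when each library was centred on its median, at 1.05. Dissociation stress genes, 3 of 14 of which were called higher in TA, moved with both, and their part was not tested.

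Il34, a ligand of the CSF1 receptor, had reads in 8 of 8 TA and 5 of 8 EOM libraries. Its levels were 0.63, 3.91 and 5.18 log2 RPM in TA and -1.67, -1.22 and 2.53 in EOM, and it differed by 3.44 ± 0.83 (SE, adjusted p = 0.0112, limma). The genes Gm15894 and Gm15895 lie within its span. Within Experiment 1 alone, with 3 EOM and 2 TA libraries, 1 member was called higher and 1 lower, against 0.893% and 1.23% of all genes, whereas within Experiment 2 alone 2 were higher and 3 lower, against 0.734% and 2.2%. Of the 46 members, 2 were higher in TA and 3 lower with mitochondrial genes left out of the scaling (1.54% and 2.35% of all genes), 3 and 3 with centred libraries (1.77% and 2.08%), 3 and 1 by edgeR (1.87% and 1.45%) and 3 and 3 by DESeq2 (2.44% and 1.96%).

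After grafting, the members were compared with pre-graft cells of the same muscle. In TA, 5 of 45 members were higher and 9 lower, against 3.79% and 30.9% of all 13076 genes. In EOM, 2 of 47 were higher and 17 lower, against 3.51% and 55.8% of 13094 genes. The median of the members was -0.29 in TA and -0.90 in EOM, above the medians of all genes of -1.09 and -1.48. Centring each library on its median turned the balance to 12 higher and 4 lower in TA and to 6 higher and 5 lower in EOM, against 7.67% higher and 5.68% lower of all genes in TA and 6.65% and 4.84% in EOM. Leaving mitochondrial genes out of the scaling gave 9 higher and 7 lower in TA (6.02% and 11.9% of all genes) and 5 and 6 in EOM (5.2% and 12.4%). On recovered reads edgeR called 10 higher and 2 lower in TA (5.98% and 3.07%) and 7 and 2 in EOM (6.93% and 2.9%), and DESeq2 11 and 3 in TA (8.8% and 4.17%) and 8 and 1 in EOM (9.13% and 4.17%). The members called higher in TA by limma with centred but not with deposited libraries were Ccl2, Cxcl11, Cxcl12, Cxcl16, Il11, Il17rd and Il4ra, and Cxcl12, which attracts many cell types, had medians of 7.15 log2 RPM before and 8.19 after grafting in TA and of 6.53 and 8.02 in EOM.

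**Figure D3:**
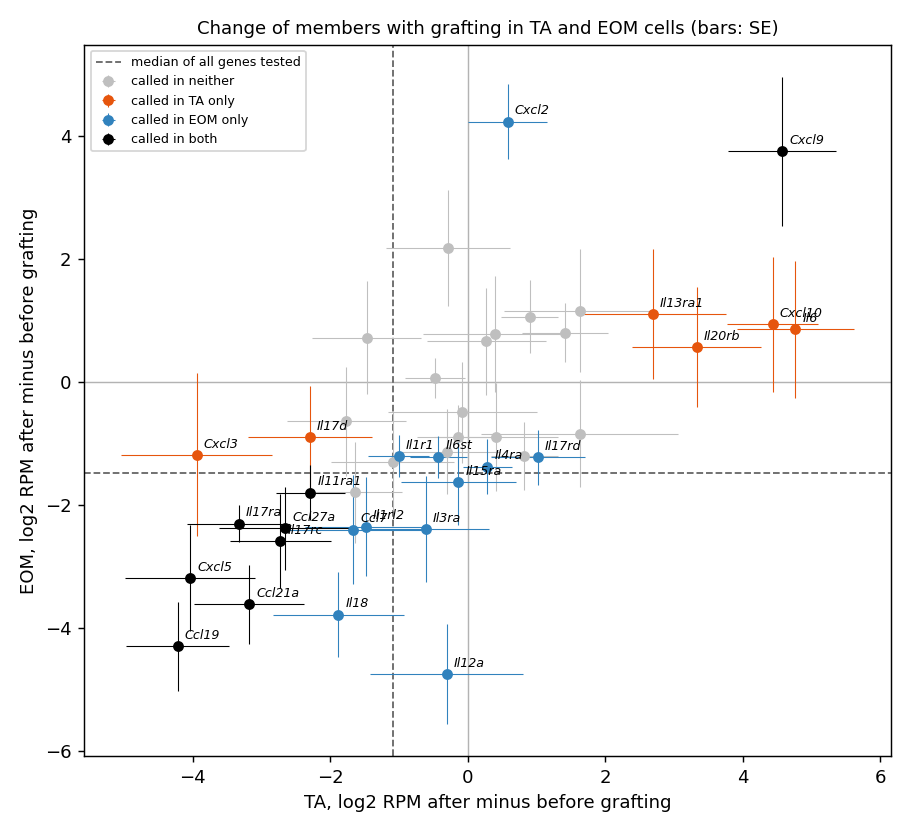
Change in log2 RPM after against before grafting in TA (horizontal axis) and EOM (vertical axis) for the 42 members tested in both, with standard errors as bars and the median of all genes tested as dashed lines. Cxcl9 stands high in both, Cxcl10 and Il6 lie at 4.44 and 4.77 in TA and at 0.93 and 0.85 in EOM, and Cxcl2 lies at 4.23 in EOM and 0.58 in TA.

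The promoters of the genes that rose most, and of Cxcl1, are printed because the graft comparisons turn on these genes, all of which lie on chromosome 5, with Cxcl1 beside Cxcl2 and Cxcl9 near Cxcl10. The sequences run from 250 to 11 bases before the RefSeq start of each gene in GRCm38.p6, 5′ to 3′ on the strand of the gene, and capitals mark matches on either strand to the NF-kB consensus known as kappaB or to the interferon-stimulated response element TTTCNNTTTC.
Cxcl1: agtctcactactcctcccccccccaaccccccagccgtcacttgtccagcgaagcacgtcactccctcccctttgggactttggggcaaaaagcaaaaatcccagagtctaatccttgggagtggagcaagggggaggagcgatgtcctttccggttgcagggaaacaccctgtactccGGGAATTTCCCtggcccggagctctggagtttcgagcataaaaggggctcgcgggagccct
Cxcl2: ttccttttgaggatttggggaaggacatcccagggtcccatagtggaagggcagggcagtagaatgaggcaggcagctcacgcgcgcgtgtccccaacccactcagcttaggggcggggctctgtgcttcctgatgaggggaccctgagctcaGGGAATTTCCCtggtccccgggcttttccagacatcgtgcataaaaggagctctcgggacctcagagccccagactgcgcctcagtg
Il6: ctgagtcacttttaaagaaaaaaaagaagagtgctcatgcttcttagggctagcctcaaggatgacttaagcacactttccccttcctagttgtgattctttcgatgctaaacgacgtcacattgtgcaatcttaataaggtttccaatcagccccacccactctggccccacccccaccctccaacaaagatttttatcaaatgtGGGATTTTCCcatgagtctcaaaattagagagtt
Cxcl10: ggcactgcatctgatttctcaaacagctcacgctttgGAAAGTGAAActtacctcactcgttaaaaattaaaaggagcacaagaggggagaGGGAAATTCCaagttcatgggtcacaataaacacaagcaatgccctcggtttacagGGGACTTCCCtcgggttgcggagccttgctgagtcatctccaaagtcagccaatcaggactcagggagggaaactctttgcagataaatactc
Cxcl9: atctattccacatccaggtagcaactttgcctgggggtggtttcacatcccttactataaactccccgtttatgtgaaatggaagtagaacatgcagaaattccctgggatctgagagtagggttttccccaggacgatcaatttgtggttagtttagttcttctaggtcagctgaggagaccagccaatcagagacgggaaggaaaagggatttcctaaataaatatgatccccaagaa

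They lie at chr5:90890995-90891234 (plus strand) for Cxcl1, chr5:90903649-90903888 (plus) for Cxcl2, chr5:30012864-30013103 (plus) for Il6, chr5:92348900-92349139 (minus) for Cxcl10 and chr5:92328090-92328329 (minus) for Cxcl9. Cxcl1 and Cxcl2 held the same kappaB match on both strands, overlapping by all but 1 base, at -71 to -61 and -97 to -87 from the start, and Il6 held 1 at -44 to -35. Cxcl10 held kappaB matches at -159 to -150 and -103 to -94 and the interferon element at -213 to -204, and Cxcl9 held neither in this window. A kappaB match was found in 3.75% of all 32851 promoter windows of this length and the interferon element in 2.87%, and in 13 and 5 of the 100 members with a RefSeq entry. A match is a description of letters and not a site shown to be bound.

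Cxcl10 and Cxcl9, chemokines known to be induced by interferons, stood apart in TA grafts from every TA pre-graft library. Cxcl10 was 2.22, 4.33 and 7.18 log2 RPM (lowest, median and highest) before and 7.54, 9.76 and 10.77 after grafting, a rise of 4.44 ± 0.66 (SE; 7 and 8 libraries, adjusted p = 0.000267, limma) and of 5.52 relative to all genes. Cxcl9 was -1.14, 3.45 and 5.24 before and 5.71, 7.46 and 8.50 after grafting, a rise of 4.57 ± 0.79 (SE, adjusted p = 0.000566, limma). Groups without overlap and higher in grafts were found for 0.214% of all genes tested in TA. Cxcl10 and Cxcl11 lie within the span of Art3 on the opposite strand, and Cxcl11 had no more than 26 reads in any library.

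In EOM, Cxcl9 rose by 3.74 ± 1.21 (SE, adjusted p = 0.0131, limma), from 1.99 to 5.42 log2 RPM at the median, but was not called in Experiment 2 alone, where it differed by 3.29. Cxcl10 was 6.17 before and 8.23 log2 RPM after grafting at the median, and its fitted difference was 0.93 ± 1.09 (SE, adjusted p = 0.452, limma), with 1 EOM graft library at -0.99 and the other 6 between 6.72 and 10.23. That library, of mouse 2 in Experiment 2, had 1 read of Cxcl10 and none of Cxcl9, and it also held the lowest sum of interferon-induced genes among EOM grafts, 1101 RPM, and 481 RPM of endothelial markers. The only EOM graft library of Experiment 1 had the lowest endothelial sum, 194 RPM, and the highest MuSC sum, 12071 RPM, with 451 reads of Cxcl10 and 80 of Cxcl9. The remaining EOM grafts held 683 to 2221 RPM of endothelial markers. These are values of single libraries, and a relation of Cxcl9 or Cxcl10 to the marker sums was not tested. By edgeR on recovered reads Cxcl10 rose in EOM by 3.63 and was called.

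The interferon-induced list, which holds 16 genes such as Isg15, Ifit1 and Irf7, moved with them. Of its 16 genes, 14 were higher in TA grafts with a median of 3.28 and 11 in EOM grafts with a median of 2.32, and none was lower, against 3.79% and 3.51% of all genes higher. Its sum went from 1089 to 3195 RPM in TA pre-graft libraries to 1886 to 10570 RPM in TA grafts, and from 1592 to 2167 RPM to 1101 to 6987 RPM in EOM.

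Il6, the cytokine that signals through gp130, showed the largest rise among the members in TA by limma. It was -1.14, 4.93 and 7.88 log2 RPM (lowest, median and highest) before grafting and 6.49, 9.21 and 10.57 after it, so that the highest pre-graft and lowest graft libraries overlapped, with a difference of 4.77 ± 0.85 (SE, adjusted p = 0.000686, limma) and 5.85 relative to all genes. In EOM it was 4.59, 5.31 and 6.67 before and -1.24, 6.45 and 10.54 after grafting, a difference of 0.85 ± 1.11 (SE, adjusted p = 0.499, limma). EOM grafts spread from no read in the library of Experiment 1 to 2585 reads in that of mouse 4 in Experiment 2. By edgeR the difference in EOM was 4.45 and called.

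Its receptor genes were called higher in neither muscle. Il6ra, the subunit that binds IL-6, was 2.63 at the median before and 2.92 after grafting in TA and 4.04 and 3.83 in EOM. Il6st was 8.75 and 8.64 in TA and 8.98 and 8.11 in EOM, where it was called lower by 1.21 at an adjusted p of 0.00656 (limma) yet lay 0.26 above the change of all genes, at 0.04 with each library centred on its median and at 0.12 by edgeR. Without the EOM graft library of mouse 3 in Experiment 2 the change was -0.94 and no longer called. Il11, a related ligand, had 0 to 22 reads per library in TA grafts and 5 of 7 libraries had any, against 4 of 8 before grafting. Its difference of 1.66 in TA did not pass the test (adjusted p = 0.0856, limma), but it was called with centred libraries at 2.56 and without mitochondrial genes in the scaling at 2.25 (adjusted p = 0.0201 and 0.0338, limma).

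Il20rb, a subunit of the receptors for IL-19, IL-20 and IL-24, rose in TA from reads in 2 of 8 to reads in 6 of 7 libraries, from a median of -0.76 to 3.58 log2 RPM, by 3.33 ± 0.94 (SE, adjusted p = 0.0113, limma). Its partner subunits Il20ra and Il22ra1 had no read in any library. Il13ra1, which pairs with the product of Il4ra, went from a median of 2.97 to 5.43 log2 RPM in TA and was called at 2.69 ± 1.06 (SE, adjusted p = 0.0493, limma), a call lost when any of 12 of the 15 libraries was left out, with an adjusted p of up to 0.109. In EOM, Il20rb differed by 0.57 and Il13ra1 by 1.10, neither called.

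Cxcl2, a CXCR2 ligand like Cxcl1, rose in EOM. It went from -0.90, 2.21 and 2.92 log2 RPM in pre-graft cells to 5.32, 6.42 and 7.24 in grafts, without overlap, a rise of 4.23 ± 0.60 (SE; 7 and 8 libraries, adjusted p = 8.03e-05, limma) and of 5.70 relative to all genes. Groups without overlap and higher in grafts were found for 0.176% of all genes in EOM. In TA it was 3.10, 4.73 and 5.94 before and 3.58, 5.28 and 7.08 after grafting, a difference of 0.58 that was not called. The levels of both grafts overlapped, and the muscles differed in the pre-graft cells. Cxcl1, its neighbour, had medians between 10.15 and 10.88 log2 RPM in all 4 groups and was called by limma in neither comparison of grafts with pre-graft cells, although edgeR called it higher in EOM at 1.23.

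**Figure D4:**
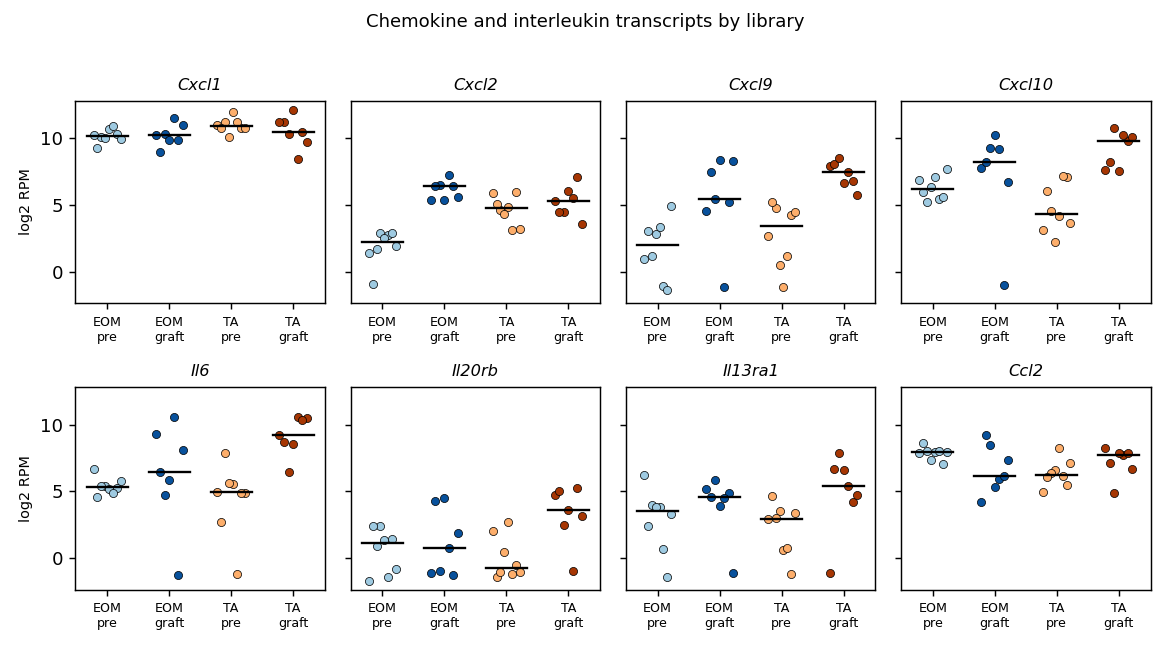
Levels in log2 RPM of Cxcl1, Cxcl2, Cxcl9, Cxcl10, Il6, Il20rb, Il13ra1 and Ccl2 in each library, by group, with the median as a line. Cxcl9 and Cxcl10 of TA grafts lie above all TA pre-graft libraries, Cxcl2 of EOM grafts lies above all EOM pre-graft libraries, and single EOM grafts stand near the value of a gene without reads for Cxcl9, Cxcl10, Il6 and Il13ra1.

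Of the 42 members tested in both muscles, 8 were called in both, of 14 called in TA and 19 in EOM. Of these 8, 1 was higher and 7 lower in both muscles, or 2.38% and 16.7% of the 42, beside 1.91% and 26.9% of the 12467 genes tested in both. The one that was higher was Cxcl9. The other 7 were the ligands Ccl19, Ccl21a, Ccl27a and Cxcl5 and the receptor genes Il17ra, Il17rc and Il11ra1.

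Ccl19 and Ccl21a, the ligands of CCR7 that guide dendritic cells and T cells, had reads in every pre-graft library and few or none in grafts. Ccl19 had 33 to 92 reads in EOM and 20 to 76 in TA pre-graft libraries and 0 to 38 and 0 to 9 in grafts, with differences of -4.30 ± 0.72 in EOM and -4.22 ± 0.75 in TA (SE, adjusted p = 0.000300 and 0.000686, limma). The 38 reads came from the only EOM graft library of Experiment 1, and no other EOM graft exceeded 5 reads. Ccl21a had 14 to 34 reads in EOM and 2 to 35 in TA pre-graft libraries, and 5 of 7 EOM and 6 of 7 TA grafts had none, with differences of -3.61 ± 0.65 and -3.18 ± 0.80 (SE, adjusted p = 0.000455 and 0.00603, limma), neither called by edgeR. Both lie within the span of 4930578G10Rik, and Ccl21b and Ccl21c, near-identical copies of Ccl21a, were listed without reads, so the assignment of reads to the copies is uncertain.

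Cxcl5 fell by 4.04 ± 0.95 in TA and by 3.19 ± 0.86 in EOM (SE, adjusted p = 0.00418 and 0.00507, limma), from medians of 4.81 and 4.40 log2 RPM to -0.81 and 1.77. With the donor as a block the adjusted p in EOM was 0.0501 and the call was lost. Cxcl3, a further CXCR2 ligand, fell by 3.95 ± 1.10 in TA (SE, adjusted p = 0.0106, limma) from a median of 4.82 to -0.81, but not in Experiment 2 alone, and in EOM grafts it had 405 and 242 reads in 2 libraries and at most 9 in the others. Neither Cxcl3 nor Cxcl5 was called by edgeR in TA.

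Among the 5 IL-17 receptor genes, Il17ra, Il17rc and Il17rd had reads in 29, 28 and 30 of the 30 libraries, whereas Il17rb had 90 reads in 15 libraries and Il17re 8 reads in 2. Il17ra, the subunit common to the family, was 7.49, 8.50 and 8.87 log2 RPM in TA and 8.40, 8.69 and 8.75 in EOM pre-graft libraries, with an SD of 0.142 in EOM. In grafts it was -0.44, 4.87 and 7.71 in TA and 5.62, 5.97 and 7.57 in EOM, with differences of -3.33 ± 0.75 and -2.30 ± 0.31 (SE, adjusted p = 0.00337 and 5.39e-05, limma), which put it at -2.25 and -0.82 relative to the change of all genes. In TA the call was lost by edgeR, which gave -1.55. Il17rc, its partner for IL-17A and IL-17F, fell by 2.73 ± 0.74 in TA, where the groups did not overlap, and by 2.58 ± 0.77 in EOM (SE, adjusted p = 0.00882 and 0.00867, limma), but neither change was called with libraries centred on their median. Groups without overlap and lower in grafts were found for 4.97% of all genes in TA. Il17a had no read in any library and Il17f had reads in 2 EOM pre-graft libraries, 4 at most, while Il17d, an orphan member of the family, fell by 2.30 in TA at an adjusted p of 0.0492 (limma), a call lost with the donor as a block, at 0.0590, and when any of 12 of the 15 libraries was left out.

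Il11ra1, the receptor for IL-11, fell by 2.29 ± 0.50 in TA and by 1.80 ± 0.44 in EOM (SE, adjusted p = 0.00270 and 0.00309, limma), from medians of 7.49 and 7.50 log2 RPM to 5.24 and 5.50. In EOM this was -0.32 relative to all genes and was not called with centred libraries. Ccl27a, which fell by 2.65 in TA and by 2.38 in EOM (adjusted p = 0.0355 and 0.00670, limma), overlaps the end of Il11ra1 on the other strand, and the annotated span of Il11ra1 also takes in Dctn3 and Galt, among others, so reads where these genes overlap cannot be told apart. In TA the call of Ccl27a was lost without any of 8 of the 15 libraries, and in EOM with the donor as a block, at an adjusted p of 0.0564.

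Further members were called lower only by the test in EOM, which is no test of a difference between the muscles. Il12a fell by 4.75 ± 0.81 (SE, adjusted p = 0.000327, limma) from 45 to 111 reads per library to none in 5 of 7 grafts, and Il18, a cytokine of the IL-1 family, by 3.78 ± 0.69 (SE, adjusted p = 0.000531, limma) from 15 to 50 reads to none in 5 of 7. Neither was called by edgeR. The groups did not overlap for Il12a, Il18, Ccl21a and Il17ra, and 11.1% of all genes were lower in EOM grafts without overlap. Il1rl2, the receptor of IL-36, fell by 2.35, Il3ra, a subunit of the IL-3 receptor, by 2.39 and Ccl7 by 2.40 (adjusted p = 0.0177, 0.0231 and 0.0255, limma), though edgeR put Il3ra at 0.24 and Ccl7 at 0.26. Of these Il3ra was not called without the EOM graft of mouse 6 in Experiment 2, at an adjusted p of 0.0523, and Ccl7 measured -1.48 without that of mouse 3 and was not called with the donor as a block, at an adjusted p of 0.171.

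Il1r1, Il4ra, Il15ra, Il6st and Il17rd were called lower in EOM with differences of -1.21, -1.38, -1.63, -1.21 and -1.23 (adjusted p between 0.00656 and 0.0482, limma), beside -1.48 for all genes. Relative to that median they lay between -0.15 and 0.27. None was called with the libraries centred on their median, and each was above 0 by edgeR, between 0.08 and 0.26. With the donor as a block 12 members were lower in EOM in place of 17, against 34% of all genes, and Il15ra, Il6st and Il17rd were among those lost, at adjusted p of 0.0692, 0.0682 and 0.156. Il4ra was not called without the EOM graft of Experiment 1, at -0.88, Il17rd was lost without mouse 3 or 6 of the EOM grafts or mouse 5 of the pre-graft libraries, all of Experiment 2, and Il15ra was lost without any of 11 of the 15 libraries. In TA, Il4ra had medians of 7.98 before and 8.45 after grafting and Il1r1 of 7.80 and 7.36.

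**Figure D5:**
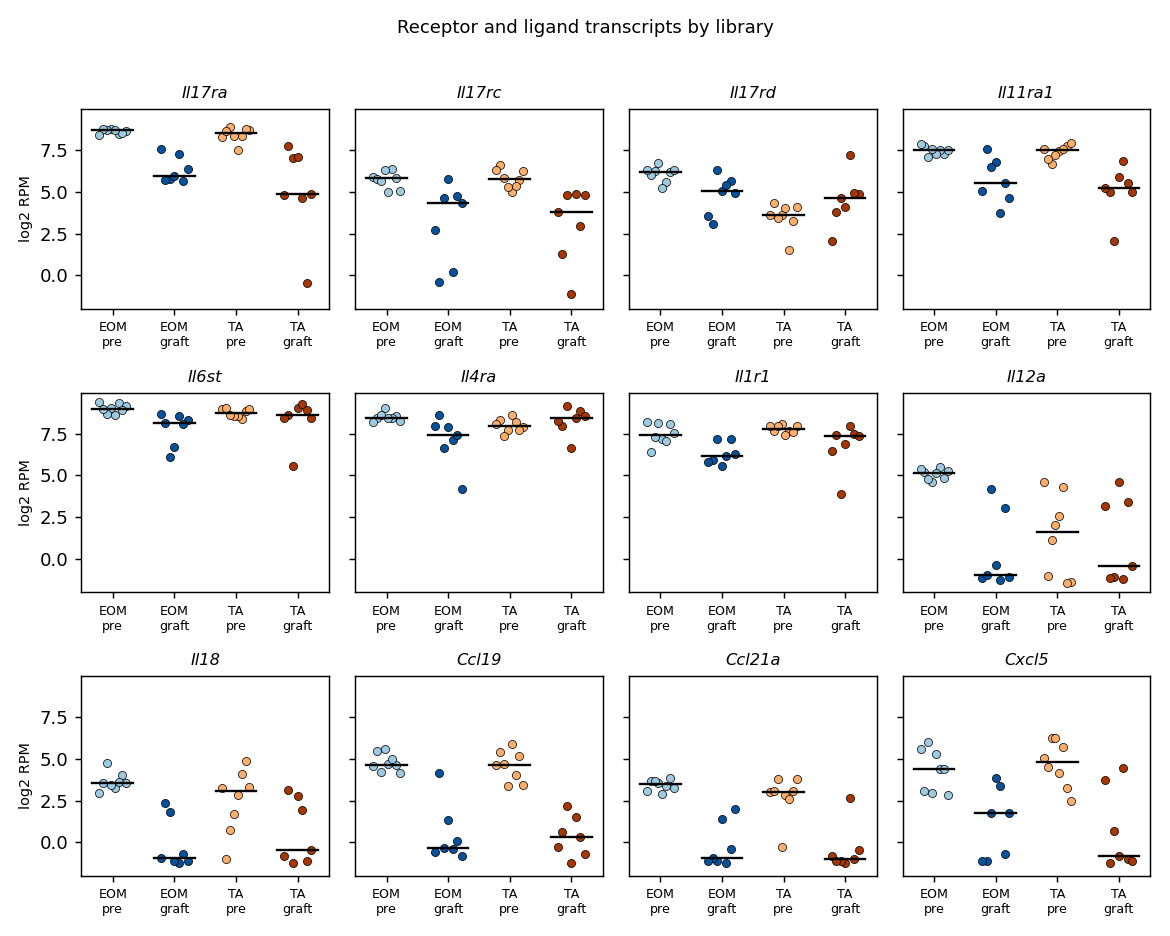
Levels in log2 RPM of 7 receptor genes and of Il12a, Il18, Ccl19, Ccl21a and Cxcl5 in each library, by group, with the median as a line. Il17ra is tightly grouped before grafting and lower in every graft of EOM, Il17rd differs between EOM and TA before grafting, and Ccl19 and Ccl21a are near the value of a gene without reads in most grafts.

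Grafts of EOM and TA cells were then compared with each other. Of 44 members tested none was called by limma, edgeR or DESeq2 (0 of 44 by each), and 5 had an unadjusted p under 0.05 in limma, beside 452 of all 12377 genes, of which 0% were called by limma or edgeR and 0.0162% higher and 0.00808% lower by DESeq2. The number was 1 with the donor as a block, in Experiment 2 alone, by edgeR and by DESeq2, 2 with either other scaling, and 1 to 7 when a single library was left out, with the 1 found without the TA graft of mouse 6 in Experiment 2. These 5 were Il6, higher in TA grafts by 2.96 ± 0.99, Il11, Il4ra, Cxcl9 and Cxcl10, with TA higher in each and an adjusted p of 1.0 (SE, limma). For Il6 and Cxcl10 the difference was 0.74 and 0.49 by edgeR. Of the members that differed before grafting, Il17rd measured -0.35, Il12a 0.70, Ccl2 0.55, Cxcl2 -0.92 and Il34 0.99 between grafts, none called, and a p that misses the threshold does not show that the grafts were alike.

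The change with grafting was also compared between the muscles in a fit of all 30 libraries. Of 59 members, 1 differed, against 0.0554% of 14428 genes in this direction and 0.152% in the other. Cxcl2 changed by 3.65 ± 0.83 more in EOM than in TA (SE, adjusted p = 0.0470, limma). The call was lost when any of 22 of the 30 libraries was left out, with an adjusted p of up to 0.0970 without the EOM graft of mouse 5 in Experiment 2, and in Experiment 2 alone, under both other scalings and by edgeR, but not by DESeq2, although the difference stayed between 3.25 and 3.96 as libraries were left out. Of all genes, 0.0693% and 0.097% were called in the 2 directions without mitochondrial genes in the scaling, 0.097% and 0.0693% with centred libraries, 0.00693% and 0.00693% by edgeR and 0.499% and 0.222% by DESeq2, with 0, 0, 0 and 1 of the members among them. Il12a, Il17rd, Ccl2, Il6 and Cxcl10 measured -4.44, -2.25, -2.03, -3.91 and -3.50 with adjusted p from 0.378 to 0.570 (limma).

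Genes of the pathways downstream were followed as fixed lists. Of 9 further IL-6 family genes such as Lif, Osm and their receptors, 7 were tested after grafting. By limma as deposited, 2 were lower in TA and 5 in EOM with none higher, with medians of -0.68 and -2.54. With centred libraries 1 was higher and 2 lower in TA, and 3 were lower in EOM. By edgeR 1 was higher and 1 lower in each muscle. Of 15 JAK-STAT transducers, 14 were tested, with 1 higher and 2 lower in TA and 6 lower in EOM, and medians of -0.42 and -1.02. Of 24 genes of IL-1 signalling to NF-kB, 12 were lower in TA and 17 in EOM and 1 was higher in EOM, with medians of -1.16 and -1.83. Of all genes tested, 30.9% were lower in TA and 55.8% in EOM, with medians of -1.09 and -1.48. The medians of the first 2 lists turned positive in TA with centred libraries, at 0.21 and 0.47, and that of JAK-STAT transducers also in EOM, at 0.23. With centred libraries 1 of the 14 JAK-STAT transducers was higher and 0 lower in TA, and 1 was lower and 0 higher in EOM. Of the 24 genes of IL-1 signalling to NF-kB, 1 was then lower and 1 higher in TA and 3 lower and 1 higher in EOM. Of 7 chemokine genes outside the name rule 3 were tested and 1 was lower in EOM. Without mitochondrial genes in the scaling, with centred libraries and by edgeR, 1 of them was higher and 0 lower in EOM. Before grafting, 1 gene of each of the first 3 lists, of 8, 14 and 24 tested, was lower in TA and none higher. Of all genes tested, 3.31% were lower and 1.26% higher. Without mitochondrial genes in the scaling and with centred libraries, only 1 gene of the IL-6 family was lower among these lists. By edgeR none was.

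Il2rg codes for the common γ chain of the receptors for IL-2, IL-4, IL-7, IL-9, IL-15 and IL-21, and is the gene that the γC-/- hosts lack. It had reads in 3 of 8 EOM and 4 of 8 TA pre-graft libraries, with up to 23 and 122 reads, and in 5 of 7 EOM and 7 of 7 TA grafts, with up to 22 and 112 reads. Levels in TA went from a median of 0.05 to 2.67 log2 RPM and in EOM from -1.24 to 0.65, with ranges that overlapped, and Il2rg was called by limma, edgeR or DESeq2 in none of the comparisons. It overlaps Gm20489 on the same strand.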

How the data were processed

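RNA was sequenced from sorted MuSCs in 40 libraries, of which 30 passed the study's quality control. The other 10 fell below its limits on total reads or on reads in exons or, for 1 EOM pre-graft library, were left out as an outlier of the group. The authors trimmed reads (Trim Galore 0.4.4), aligned them to GRCm38 with HISAT2 2.1.0 and deposited log2 RPM per gene from Seqmonk, in which a gene without a read stands at 0.9 reads. Per the labels and the deposited sample sheet, total read counts and the percent of reads in genes and exons were also given by the authors. A further 40 bisulfite libraries were not analysed here. Counting did not use strand as far as the sources used here state.

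The log2 RPM of 25899 genes (66 repeated symbols were dropped) was tested with limma 3.58.1 (R 4.3.3) with a mean trend. A gene entered a comparison when 4 or more of its libraries exceeded a log2 RPM of 1, p-values were adjusted over all of them by Benjamini-Hochberg, and a call required an adjusted p under 0.05 and a log2 difference beyond 1. Whole reads were recovered from the RPM steps, with 99.9932% of values whole within 0.02 reads, for edgeR 4.0.16 (quasi-likelihood) and DESeq2 1.42.0. Only the limma fit was tried on simulated counts, for TA against EOM before grafting and for TA after against before grafting. The simulation gave every gene the same spread, and edgeR and DESeq2 were not tried on it. Other alternatives were a pseudocount of 1, filters, the donor as a block, Experiment 2 alone, the 10 failed libraries, scaling without mitochondrial genes or by each library's median, and leaving out each library. Experiment 1 alone and leaving out 3 libraries that stand apart in their markers were added after seeing the data. Exon lengths came from GENCODE and promoters from RefSeq.

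Libraries of 1 group came from separate animals, and 1 donor gave up to 4 libraries, EOM and TA cells before and after grafting, which share its number by design. Deviations from the group means of same-donor libraries correlated between -0.07 and 0.18 (7 donors) for EOM and TA pre-graft cells, -0.07 and 0.10 (7) for TA before and after, -0.22 and 0.10 (6) for EOM before and after, and -0.12 and 0.09 (6) between grafts. Members named with values were those called in at least 1 comparison, the 10 most abundant of each group, Il2rg and their ligands or receptors. Members and lists were chosen with earlier results of these data known. The values of 1 member are not reported here.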

Additional observations from a re-analysis of the deposited data

Results flagged for a closer look

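In 19 of 120 groups of 7 or 8 libraries of the named members, the highest or lowest library stood apart from the rest by Dixon's criterion, where chance flags about 1 in 20. All values are log2 RPM.

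Among EOM grafts, the library of mouse 2 in Experiment 2 was lowest for Cxcl10 at -0.99 (1 read), for Cxcl9 at -1.14 (0 reads) and for Il13ra1 at -1.14 (0 reads). That of mouse 4 in Experiment 1 was highest for Ccl19 at 4.16 (38 reads), and that of mouse 1 in Experiment 2 was highest for Il3ra at 5.67 (58 reads).

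Among TA grafts, the library of mouse 3 in Experiment 2, which had the fewest reads of MuSC markers, was lowest for Il17ra at -0.44 (0 reads), Il11ra1 at 2.04 (5 reads), Il1r1 at 3.88 (18 reads) and Il6st at 5.55 (57 reads). Its percent of reads in mitochondrial genes, as deposited, was 46.8%, the highest among TA grafts. Scaling without mitochondrial genes raises all its values by 2.40, and the part of this in the low values was not tested. Il13ra1 was lowest in mouse 2 of Experiment 2 at -1.10 (0 reads), and Ccl21a was highest in mouse 1 of Experiment 2 at 2.66 (10 reads).

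Among TA pre-graft libraries, those flagged were all of Experiment 2. Ccl21a was lowest in mouse 2 at -0.25 (2 reads), as was Il17ra at 7.49 (429 reads). Ccl7 was lowest in mouse 1 at 2.94 (14 reads), as was Cxcl3 at -1.02 (0 reads). Il15ra was lowest in mouse 3 at -1.14 (0 reads) and Il17rd in mouse 6 at 1.51 (7 reads). Among EOM pre-graft libraries, Cxcl2 was lowest in mouse 1 of Experiment 2 at -0.90 (0 reads) and Il4ra highest in mouse 3 of Experiment 1 at 9.04 (1003 reads).

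The change of Cxcl2 with grafting differed between the muscles by 3.65 in the fit of all 30 libraries (limma).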

How the results depend on the processing

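Counts of members called moved with several settings, of which edgeR and DESeq2 change the model along with the scaling. The share of all genes called moved as well and is given beside each count. For TA against EOM before grafting, 2 higher became 0 with the failed libraries and 1 in Experiment 1 alone, and 4 lower became 1 by edgeR and 1 in Experiment 1 alone. The share of all genes went from 1.26% to 0.227% and 0.893% higher, and from 3.31% to 1.45% and 1.23% lower. For TA after grafting, 5 higher became 9 without mitochondrial genes in the scaling, 12 with centred libraries, 10 by edgeR and 11 by DESeq2, and 9 lower became 4 centred, 2 by edgeR and 3 by DESeq2. In the same order, 3.79% of all genes higher became 6.02, 7.67, 5.98 and 8.8%, and 30.9% lower became 5.68, 3.07 and 4.17%. For EOM after grafting, 2 higher became 5 without a filter, 4 in Experiment 2 alone, 5 without mitochondrial genes, 6 centred, 7 by edgeR and 8 by DESeq2, and 17 lower became 6 without mitochondrial genes, 5 centred, 2 by edgeR and 1 by DESeq2. In the same order, 3.51% of all genes higher became 2.48, 3.81, 5.2, 6.65, 6.93 and 9.13%. The 55.8% of all genes lower became 12.4, 4.84, 2.9 and 4.17%. The 1 member that differed in its change between muscles became 0 without a filter, in Experiment 2 alone, with the failed libraries, without mitochondrial genes, centred, by edgeR and without the libraries that stand apart. In the same order, 0.0554% of all genes in this direction became 0.0116, 0.0347, 0, 0.0693, 0.097, 0.00693 and 0.0347%. The cause was not tested.

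Leaving out 1 library gave 2 to 2 higher and 3 to 4 lower before grafting, 4 to 6 and 7 to 10 in TA, 2 to 5 and 14 to 19 in EOM, 0 to 0 between grafts, and 0 to 1 higher and 0 to 0 lower for the difference of changes. The shares of all genes were 1.10 to 1.84% higher and 2.69 to 3.80% lower before grafting. They were 2.86 to 4.24% and 22.3 to 35.1% in TA and 2.85 to 4.45% and 48.8 to 62.4% in EOM. Between grafts they were 0%, and for the difference of changes 0.0416 to 0.0762% and 0.0762 to 0.222%.

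In EOM after grafting these changes turned: Il1r1 to 0.042 centred, 0.080 by edgeR and 0.21 by DESeq2, Il6st to 0.035, 0.12 and 0.24, and Il17rd to 0.023, 0.076 and 0.17. By edgeR and DESeq2, Il15ra turned to 0.11 and 0.19, Il4ra to 0.26 and 0.39 and Ccl7 to 0.26 and 0.34, and by edgeR Il3ra to 0.24.

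With the donor as a replicate block, 33 of 40 calls of single members kept their side of the threshold and 7 did not, and 12 in place of 17 were lower in EOM after grafting. The share of all genes lower there was 34.0% in place of 55.8%. A gene with no read in a library was limited to 3 reads, or 1.05 to 4.64 RPM.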
